A study of Rattus norvegicus with 20 samples.

Results

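ENSRNOG00000023227 is 1 row of a table of 24613 Ensembl gene identifiers counted by RNA sequencing in the soleus of rats with spinal cord injury. It was chosen by its identifier after earlier work on the same counts had found it lower in contused rats that swam than in contused rats that walked in shallow water or were not exercised. The levels of swimming, walking and contusion libraries therefore chose the gene, and they are given here as a description. It was also picked as an abundant gene, so its overall level and rank are a description too. The table holds identifiers only, and 0 of the 47357 genes in the RefSeq table used for names carry an Ensembl identifier. The gene is for that reason named by its identifier, with no symbol, position, sequence or known role, and the labelled tissue was not checked against muscle markers.

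The 20 libraries came from Sprague-Dawley rats and fell into 5 groups of 4. Uninjured rats were labelled 11.5 weeks, rats with a complete transection of the cord at T2 were sampled at 8.5 weeks, and unexercised rats with a contusion of 25 g-cm at the same level at 11.5 weeks. The swimming and walking groups had that same contusion and were sampled at 13.5 weeks, after 10 weeks of training on 5 days a week that started at 2.5 weeks. From day 4 all animals were kept in small cages that restrict movement, so this restriction is common to the groups, while the sampling time differs between most of them together with injury or exercise. The sources used here give no ages. Each library is labelled as a replicate of its group and the design describes individual animals.

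The soleus is a postural muscle of the calf that is active during standing and is built mainly of slow, oxidative fibres. Injury of the thoracic cord removes or weakens the descending drive to the lumbar motor neurons that control it, while the muscle keeps its nerve. Loss of loading and activity is known to bring atrophy and a shift of such muscle toward faster fibre types. Swimming moves the hind limbs with the body held up by water, and walking in shallow water keeps part of the body weight on the limbs.

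Total counts ran from 21165832 to 39729930 per library, and 13398 genes passed the filter on low counts. Levels are given as CPM, a count scaled to a common library size, after adjusting the library sizes by the trimmed mean of M values (TMM). This is a factor per library taken from the bulk of genes, with the most extreme left out, so that a few abundant transcripts do not set the scale. Transection library 3 stood apart, with the lowest scaling factor (0.711) and the fewest genes with a count (13837). The transection group as a whole had factors of 0.711 to 0.953. Its 50 most abundant genes held 53.7% to 60.2% of all counts, against at most 51.3% in any library of the other groups. Walking library 1 had a factor of 1.16, within the range of the swimming group (1.06 to 1.18). Uninjured libraries 1 to 3, at 1.08 to 1.09, also lay within that range.

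ENSRNOG00000023227 was an abundant transcript in all 20 libraries. Its mean level of 3235 CPM placed it at rank 41 of the 13398 genes, a description since abundance was part of the choice. The counts behind it ran from 21327 to 150577 per library, so counting error was small: in swimming library 1, the lowest, the gene held 0.0763% of all counts with a 95% exact binomial interval of 0.0752% to 0.0773%. This interval covers counting error only.

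In uninjured muscle the gene stood at 2856, 2678, 3588 and 4626 CPM in libraries 1 to 4. The group thus held both rather low values and the highest of all 20 libraries. After transection it stood at 4522, 4154, 4437 and 4213 CPM, a narrow band near the top of the uninjured range. Contused rats without exercise gave 3003 CPM in library 2 and 4420, 4108 and 3671 CPM in libraries 1, 3 and 4, all within the uninjured range.

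The swimming libraries gave 648, 1148, 1296 and 1269 CPM. All 4 lay below every other library of the series. In whole muscle, fewer cells of a type and less RNA of the gene per cell cannot be told apart. Walking libraries gave 2053 CPM in library 1 and 3771, 3902 and 4341 CPM in libraries 2 to 4. Walking library 1 was the lowest of the 16 libraries outside the swimming group, and the other 3 overlapped uninjured, contusion and, for library 4, transection libraries.

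**Figure D1:**
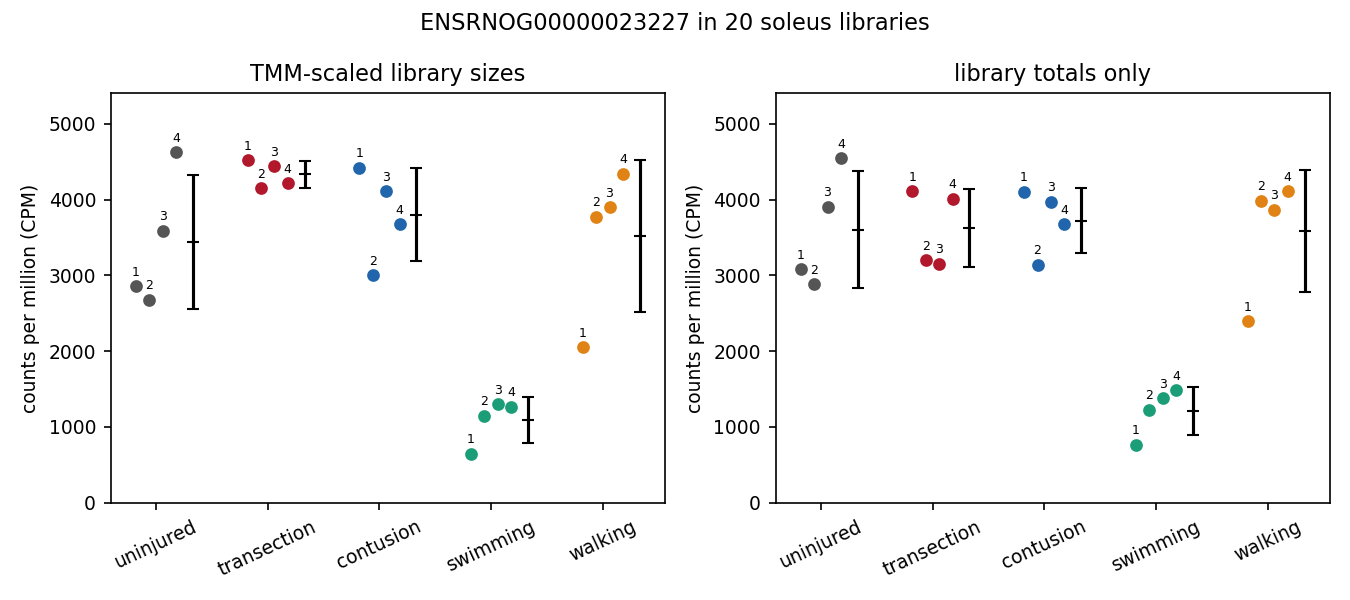
Level of ENSRNOG00000023227 in CPM (y axis, from 0) in each library (points, numbered by replicate) of the 5 groups (x axis), with the group mean and SD (n = 4) as a bar beside them; the left panel uses TMM-scaled library sizes and the right panel library totals only. With either scaling the 4 swimming libraries lie below the 16 others, whose lowest is walking library 1.

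Ordered by mean, the groups stood at 4332 ± 176 CPM after transection, 3800 ± 614 after contusion, 3517 ± 1006 after walking, 3437 ± 885 in uninjured muscle and 1090 ± 301 after swimming (SD, n = 4 each). Neighbours among the first 4 overlapped and differed by less than the larger of their SDs. The order among these 4 depends on the scaling: as a share of all counts the means were 0.372 ± 0.0426% after contusion, 0.362 ± 0.0513% after transection, 0.360 ± 0.0769% in uninjured muscle and 0.359 ± 0.0805% after walking. The share after swimming was 0.121 ± 0.0317%, the lowest on this scale too.

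The place of the gene among all genes moved in the same way. Ranked by count within each library, it was number 28 to 37 in muscle without injury, 30 to 35 in transected, 31 to 38 in contused and 34 to 49 in walking rats. In swimming libraries it was number 66 to 113. Rank 49 belonged to walking library 1 and rank 113 to swimming library 1.

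The difference of transection from uninjured had no part in the choice of the gene, and this is the comparison that was tested. The gene did not pass: the log2 difference was 0.33 (SE 0.23), with a 95% interval of -0.15 to 0.82 (edgeR quasi-likelihood test over all genes, adjusted p = 0.301). Of the 13398 genes 28.1% passed this test in either direction, at an adjusted p below 0.05. The interval includes no difference and also a rise of up to 1.76-fold. Transection libraries lay above uninjured ones in 12 of the 16 possible pairs of libraries. Scaled by library totals alone, the log2 difference was 0.01 (adjusted p = 0.983), and the median over all genes was -0.32 instead of 0.02. Without uninjured library 4 the log2 difference was 0.51 (adjusted p = 0.139), and without transection library 3 it was 0.30 (adjusted p = 0.414).

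Comparisons that involve the contusion, walking or swimming group are given without a test. After contusion the log2 difference from uninjured muscle was 0.15 (SE 0.23), and after transection the difference from contusion was 0.19 (SE 0.23). Walking differed from contusion by -0.11 (SE 0.23), with an interval of -0.59 to 0.37, and from uninjured by 0.03 (SE 0.23). Transection and walking differed by 0.30 (SE 0.23). The libraries of both groups overlapped in each of these comparisons, and each interval reached across 0. These intervals are descriptions and do not show that the groups are equal. These small differences between groups moved when single libraries were left out. Contusion against uninjured was 0.06, 0.04 and 0.32 without uninjured library 1, 2 or 4, and 0.05 and 0.24 without contusion library 1 or 2. Transection against contusion ran from 0.09 without contusion library 2 to 0.26 without contusion library 1, and was 0.17 without transection library 3. Walking against contusion ran from -0.23 without walking library 4 to 0.08 without walking library 1, and walking against uninjured from -0.08 without walking library 4 to 0.21 without uninjured library 4 or walking library 1. Transection against walking ran from 0.13 without walking library 1 to 0.42 without walking library 4.

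Swimming stood apart in all 4 of its comparisons, of which those with contusion and walking chose the gene. Transection against swimming spans the extremes of the order: the gene was 3.97-fold higher after transection, a log2 difference of 1.99 (SE 0.24, interval 1.49 to 2.49). The lowest transection library was 3.21 times the highest swimming library. In 11.9% of all genes the 4 transection libraries lay above the 4 swimming libraries. The value was 1.58 with library totals only, where the median of all genes was -0.42, and 2.33 with voom and sample weights. Without transection library 3 it was 1.99. The swimming libraries took part in the choice of the gene, so this difference is a description. The transection and swimming groups were also sampled at different times, 8.5 and 13.5 weeks.

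Against uninjured muscle the gene was 3.15-fold lower after swimming, a log2 difference of -1.66 (SE 0.24, interval -2.15 to -1.16). In 11.6% of all genes the swimming libraries lay below all uninjured ones. Against contusion the level was 3.49-fold lower and against walking 3.23-fold lower. Without walking library 1 the log2 difference from walking was -1.86. Swimming libraries lay below all contusion libraries in 6.81% of genes and below all walking libraries in 3.49%. Of these comparisons the one with uninjured, like the one with transection, shares the swimming libraries with the choice, so it adds no independent support.

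**Figure D2:**
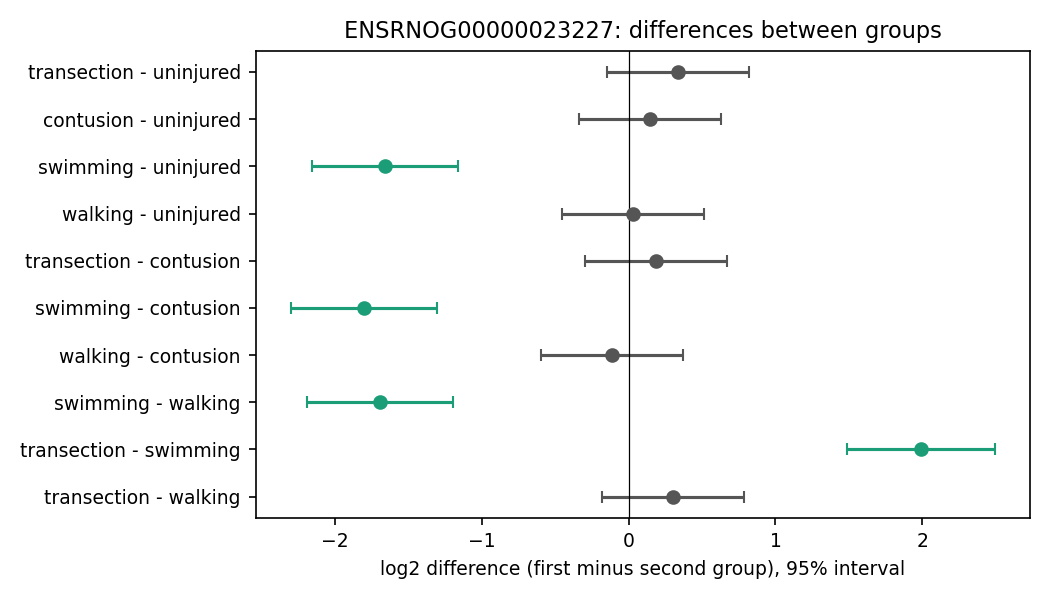
Log2 difference of ENSRNOG00000023227 (x axis) for the 10 pairs of groups (y axis), first group minus second, with 95% intervals of the edgeR fit as bars; green marks pairs with the swimming group. The 4 green intervals lie away from 0 and the 6 others include it. Only transection against uninjured was tested. In all other pairs at least 1 group entered the differences that chose the gene, so their intervals are descriptions.

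In 151 genes, 1.13% of those tested, all 4 swimming libraries lay below all 16 others. Among these genes ENSRNOG00000023227 had the widest gap: its lowest library outside the swimming group, walking library 1, held 1.58 times the CPM of its highest swimming library. Without walking library 1 this ratio was 2.07, again the widest among the 255 genes whose swimming libraries then lay below all 15 others. It was the 1 gene with a mean of at least 1000 CPM among the 151. Since the gene was chosen for this pattern and as an abundant gene, its place among them is a description.

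Within groups the gene was neither particularly steady nor particularly variable. The SD of its log2 CPM within groups was 0.36, while the 200 other genes of highest mean level had a median SD of 0.27, and 62 of these 200 had a larger SD than it. Its biological coefficient of variation was 24.2%, against 24.9% for the trend at its abundance. The fit draws this estimate toward the trend, so their closeness is partly built in. The spread was uneven between groups: the highest library was 2.11 times the lowest in walking, 2.00 times in swimming, 1.73 times in uninjured and 1.47 times in contusion libraries. In transection it was 1.09 times, and 3 of the 200 abundant genes had a smaller SD in that group. The narrow transection band is itself a matter of scaling, since as a share of all counts these 4 libraries ran from 0.315% to 0.411%.

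The gene was set beside other abundant genes for swimming against contusion. Of the 200, 144 had a log2 difference below 0, with a median of -0.24 beside 0.01 over all genes tested, and 3 were lower by at least 1 log2 unit. Scaled by library totals alone, 118 were below 0, with a median of -0.05 beside 0.19 over all genes. ENSRNOG00000023227, at -1.80, lay below all 200, the lowest of which stood at -1.40; by library totals these values were -1.62 and -1.22. The same holds for swimming against walking, where the 200 ran from -0.92 to 3.05 with a median of -0.16 and the gene stood at -1.69. Since the gene was chosen for being lower in both comparisons, its place below the 200 is a description. For transection against swimming the gene, at 1.99, did not lie above all 200, which reached 2.12 with a median of 0.31. Among all 13398 genes, 10 others were at least as low for swimming against contusion, 8 against walking and 95 against uninjured. For transection against swimming 20 others were at least as high. For transection against uninjured the gene lay among the 200: 77 of them had a higher log2 difference.

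**Figure D3:**
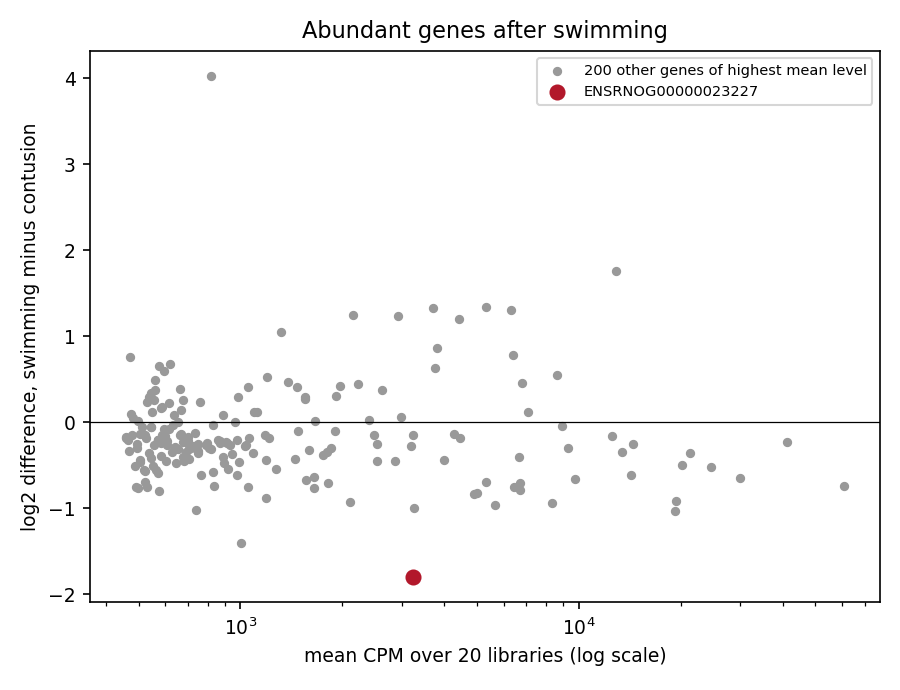
Log2 difference of swimming minus contusion (y axis) against mean level in CPM over 20 libraries (x axis, log scale) for ENSRNOG00000023227 (red) and the 200 other genes of highest mean level (grey). The gene lies at -1.80, below all 200. It was chosen for being lower after swimming, so its place is a description.

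The level of the gene moved with the scaling factor of the library. Over the 16 libraries outside the swimming group the log2 CPM had a Pearson r of -0.72 and a Spearman rho of -0.85 with the TMM factor, as a description; the factor enters the CPM itself. Without walking library 1 this r was -0.65. With CPM from library totals r was -0.23 and rho -0.48. The share of counts in the 50 most abundant genes had an r of 0.61 with the gene over the same libraries, and 0.14 when totals alone were used. Swimming libraries 2 and 3, with factors of 1.07 and 1.06, held 1148 and 1296 CPM, while uninjured libraries 1 to 3 and walking library 2, with factors of 1.06 to 1.09, held 2678 to 3771 CPM. The part of the scaling in these levels was not tested.

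**Figure D4:**
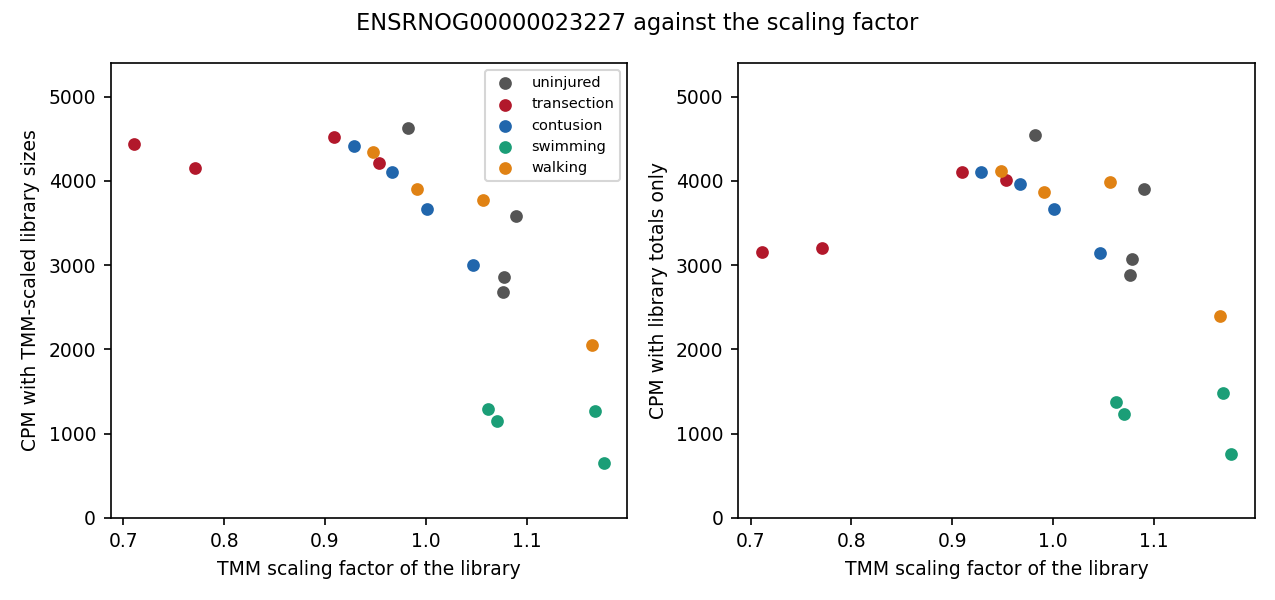
Level of ENSRNOG00000023227 in CPM (y axes, from 0) against the TMM scaling factor (x axes) for 20 libraries coloured by group, with TMM-scaled library sizes on the left and library totals on the right. The swimming libraries lie below the others at factors from 1.06 to 1.18.

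Genes that followed ENSRNOG00000023227 across libraries were ranked by the correlation of log2 CPM over the 20 libraries, among 11565 other genes with a mean of at least 1 CPM. Pearson's r was above 0.8 for 56 genes and below -0.8 for 19, and its median over all was 0.03. Since the swimming libraries form a cluster of their own, r was also read without them and after removal of the group means. Over the 16 remaining libraries 10 genes were above 0.8 and 1 below -0.8, and with group means removed 0 were above and 1 below. Of the 56 genes, 3 stayed above 0.8 without the swimming libraries. The 50 genes with the highest r had a median of 0.82, which was 0.66 without swimming and 0.47 within groups. The 50 with the lowest had -0.80, -0.58 and -0.39.

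The 50 genes that followed it had a median level of 67.5 CPM, none of them above 1000 CPM, and the 50 opposed genes 12.4 CPM, against 15.2 CPM over all genes ranked. The first list was lower after swimming than after contusion by a median log2 value of -0.47, with the largest difference at -1.48, and the second was higher by 0.79. Walking library 1 was the lowest of the 16 libraries outside the swimming group in 34 of the 50 genes that followed, and the highest in 47 of the 50 opposed ones. Over all 11565 genes it was the lowest in 1022 (8.84%) and the highest in 1307 (11.3%). The lists were ranked on these libraries, so these counts describe them and test nothing.

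ENSRNOG00000026716 had the highest r, 0.89 over 20 libraries, 0.69 without swimming and 0.45 within groups. Its level was 273 ± 35.8 CPM after swimming, 408 ± 51.2 after walking, 411 ± 22.1 in uninjured muscle, 454 ± 32.2 after contusion and 522 ± 68.0 after transection (SD, n = 4 each). Its swimming libraries ended at 302 CPM and the lowest other library, walking library 1, stood at 358 CPM. ENSRNOG00000048342 came next, at 0.88, 0.61 and 0.53. It was 37.2 ± 1.92 CPM after swimming and 44.2 ± 1.69 to 47.4 ± 2.53 in the other groups, a narrower span, and walking library 1 at 39.8 CPM fell among the swimming libraries. Scaled by library totals alone its r was 0.28, while that of ENSRNOG00000026716 was 0.83.

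The lowest values belonged to ENSRNOG00000005616 and ENSRNOG00000017925. The r of ENSRNOG00000005616 was -0.85 over 20 libraries, -0.58 without swimming and -0.35 within groups, and it stood at 24.7 ± 1.77 CPM after swimming, 15.3 ± 2.90 after walking and 10.2 ± 2.64 after transection. The r of ENSRNOG00000017925 was -0.85, -0.65 and -0.56, with 40.6 ± 1.54 CPM after swimming, 30.0 ± 5.98 after walking and 20.4 ± 1.50 after transection. In both, every swimming library lay above every other library, and walking library 1 was the highest of the remaining 16. Without swimming libraries 1 and 2, the farthest from the median of ENSRNOG00000023227, the 4 values of r were 0.86, 0.80, -0.81 and -0.82, and without walking library 1 they were 0.89, 0.88, -0.85 and -0.86.

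**Figure D5:**
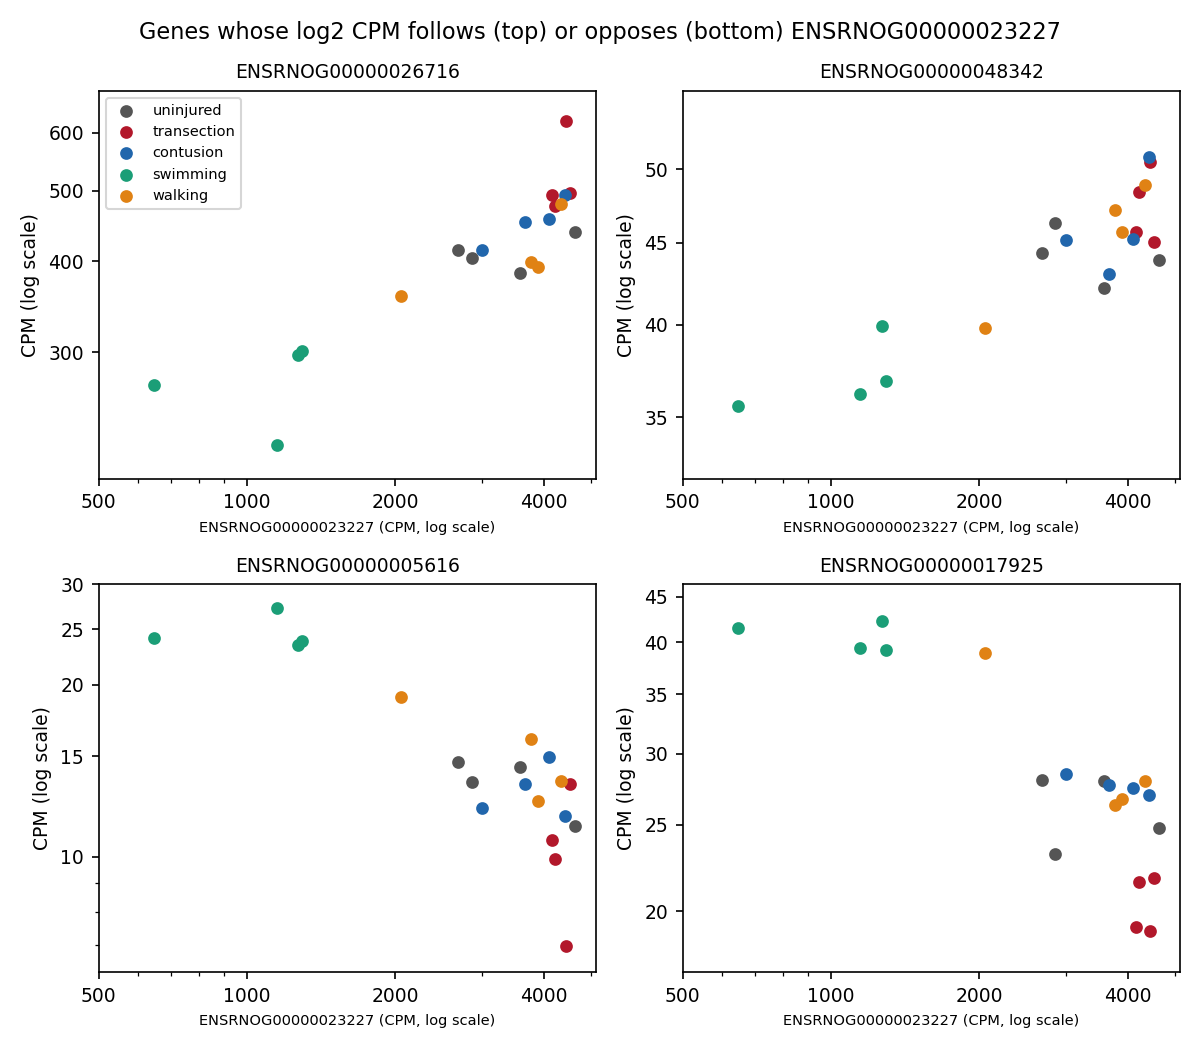
Level in CPM of the 2 genes with the highest r (top) and the 2 with the lowest r (bottom) against ENSRNOG00000023227 (both axes log scale) in 20 libraries coloured by group. Swimming libraries form a separate cluster in each panel, and walking library 1 lies nearest to it or, at the top right, level with it.

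Whether such genes also followed it in other animals was read by choosing genes in the 12 contused libraries and reading r in the 8 uninjured and transection libraries. The 50 genes with the highest r in the 12 (median 0.89) had a median r of 0.38 in the 8, and 35 of the 50 were above 0. The 50 with the lowest (median -0.88) had a median of -0.45, with 44 of 50 below 0. The median over all 11565 genes was -0.02, with 48.5% above 0. Under 8 alternatives of list size, measure, scaling and libraries the medians ran from 0.30 to 0.51 for the genes that followed and from -0.49 to -0.19 for the opposed genes, the last with Spearman's rho. A further 2 settings were chosen after seeing the data. With the 2 group means removed before reading, the genes that followed had a median of 0.35. Of these 50, 44 were above 0, beside 49.9% of all genes. The opposed genes had a median of 0.00, with 25 of the 50 below 0. With both lists chosen and read by library totals alone, the medians were 0.15 and 0.17, beside 0.08 over all genes, of which 62.3% were above 0.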

How the data were processed

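Poly-A RNA of rat soleus was sequenced from stranded libraries, per the labels' protocols. The deposited values are whole-number counts per Ensembl gene, with no normalisation. The submitters' processing notes name HTSeq, FastQC 0.10.1 and rn6; aligner, annotation and strand setting are not given in the sources used here. Overlapping genes and near-identical copies may share counts. Each column was matched to its library by label. Counts of all 20 libraries entered 1 fit of edgeR 4.0.16 (R 4.3.3) with a mean per group, filterByExpr at a minimum count of 10, TMM scaling and the robust quasi-likelihood F test, with Benjamini-Hochberg adjustment over 13398 genes and a limit of 0.05. Fold changes used a prior count of 0.125. The SE is the size of the log2 difference over the square root of F, and log2 CPM used a prior count of 2. Correlations were computed on log2 CPM of genes with a mean of at least 1 CPM; named are the 2 genes with the highest and the 2 with the lowest r, since no symbol could be paired. The marker lists prepared for the tissue needed symbols and could not be applied. Alternatives were median-of-ratios scaling, library totals, other filters, the compared groups alone, sample-weighted voom (limma 3.58.1), the DESeq2 1.42.0 Wald test, the replicate number as a block and each library left out. Libraries of a group differed by more than counting error (chi-square per degree of freedom from 26.5 to 517 over 30 pairs), so none was taken for a copy. The tests were checked on simulated data. The gene, the comparisons and the lists were chosen with earlier results of these data known. Figures were drawn with matplotlib 3.10.9.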

Additional observations from a re-analysis of the deposited data

Results flagged for a closer look

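In 25 groups of 4 CPM values (ENSRNOG00000023227 and the 4 genes named for their correlation with it, in 5 groups each), 2 had 1 library that lay far from its group. About 1.25 would be flagged by chance among unselected genes. The 4 named genes were picked on these same libraries, so this figure is no yardstick for them. ENSRNOG00000026716 stood at 623 CPM in transection library 3, where the next highest transection library held 496 CPM. ENSRNOG00000017925 stood at 38.9 CPM in walking library 1, where the next highest walking library held 28.0 CPM and the swimming libraries 39.2 to 42.3 CPM. For ENSRNOG00000023227 itself none of the 5 groups met this limit.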

How the results depend on the processing

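Over 18 alternatives the log2 difference of transection from uninjured stayed above 0 and did not pass (0.01 to 0.51, adjusted p from 0.139 to 0.983), and swimming stayed below contusion (-2.11 to -1.60) and uninjured (-1.89 to -1.48) in all 18, and below walking in all 17 (-2.08 to -1.50). With library totals only, transection against contusion moved from 0.19 to -0.0400 and transection against swimming from 1.99 to 1.58; with voom the latter was 2.33. The sign of walking against uninjured varied (-0.08 to 0.21), as did that of walking against contusion (-0.23 to 0.08). Over all genes, transection against uninjured gave 1789 higher and 1976 lower calls, and 506 and 4191 with library totals. The median r of the opposed genes in other libraries was -0.45, and 0.17 with lists chosen and read by library totals; with group means removed it was 0.00385, near 0. Both settings were chosen after seeing the data, and the cause was not tested. With the replicate number as a block, transection against uninjured was 0.37 (adjusted p = 0.217), with 1697 higher and 1968 lower calls. The numbers were not taken to pair the libraries, though pairing is not excluded. Deviations of same-numbered libraries had a median r of 0.003 and a highest of 0.43, beside a median of -0.01 for differently numbered ones. They correlated above 0.1 in 8 of 40 pairs, and 5 of 20 libraries correlated best with their own number. Counting error is small at 21327 or more counts of this gene per library; effects of depth on the differences were not tested.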
